A study of Mus musculus with 141 samples.

Results

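The 9 genes described here encode secreted ligands that epithelial cells can send to capillaries and mesenchyme, namely *Vegfa*, *Sema3a*, *Sema3b*, *Sema3c*, *Sema3e*, *Sema3f*, *Pdgfa*, *Pdgfb* and *Bmp4*. They were chosen by name, with earlier results of these data known, and all 9 were found among the 17136 genes of the count table. Reads were counted in 92 single cells that were kept and 49 that were left out, all from the lungs of 1 male ACID;R26tdTomato mouse of strain 129SV, 4 months old. In this double heterozygous mouse, Cre is expressed from the *Aqp5* gene together with DsRed, and a stop cassette flanked by loxP sites is removed from a tdTomato gene in ROSA26, so that cells with a history of *Aqp5* expression carry tdTomato. Cells without CD31 and CD45, which mark endothelial and blood cells, and with E-cadherin and tdTomato were sorted and captured singly on a microfluidic chip. There was no untreated or other control group, and every cell came from the same mouse. The cells are therefore not replicates of a condition, and no test between classes of cells was possible. The intervals given are exact 95% intervals that cover the counting error of reads only. PCR copies were counted as separate reads, so these intervals are too narrow.

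VEGF-A, the product of *Vegfa*, is the principal growth factor of vascular endothelium, and in the alveolus it acts on the capillary that lies against the thin alveolar type 1 (AT1) cell. Class 3 semaphorins are secreted guidance cues that signal through plexins, most of them with a neuropilin as co-receptor, and neuropilins also bind VEGF-A. The PDGF chains act on receptors of fibroblasts, pericytes and smooth muscle, and BMP4 is a morphogen of the TGF-beta family with a role in airway branching and alveolar differentiation.

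Every cell was labelled by the submitters as an alveolar type 1 cell, but the cells differed. The 92 kept cells had under 0.15 of their reads on mitochondrially encoded genes (the mt- share). Values are given as CPM (the counts of a gene per 1000000 reads of the cell), and as pooled CPM, in which the reads of a class are summed and divided by the class total. Cells with at least 5000 CPM of *Ager*, a receptor abundant in AT1 cells, were called type 1, and cells with at least 8000 CPM of *Sftpc*, a surfactant protein of alveolar type 2 cells, were called type 2. This gave 45 type 1 cells, 11 type 2 cells and 36 cells that met neither criterion, and no cell met both. The *Ager* threshold fell in a wide gap, between 1402 and 9335 CPM. The *Sftpc* threshold lay just above a cell with 7774 CPM, and the lowest type 2 cell had 25437 CPM. At least 6 of 8 AT1 markers exceeded 100 CPM in every type 1 cell, against at most 2 in type 2 cells and at most 3 in the other cells. At least 5 of 8 type 2 markers did so in every type 2 cell, against at most 4 in type 1 cells. In the other cells at most 6 did, in a club-marker cell. The AT1 markers include *Ager* and the type 2 markers include *Sftpc*, each of which passed in its own class by the rule. The reads per cell ranged from 157105 to 1022879 in type 1 cells, from 174055 to 1483749 in type 2 cells and from 142003 to 2170760 in the others.

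The 36 other cells were split further by their marker genes, with thresholds chosen after the data were seen. In 13 cells at least 5 of 8 ciliated cell markers exceeded 100 CPM, in 10 cells at least 2 of 6 basal cell markers did, in 11 of the remaining cells at least 3 of 6 club cell markers did, and 2 cells exceeded it for 3 of 5 fibroblast markers. The basal-marker cells also carried 2 to 4 of the 6 club markers over 100 CPM, and 1 type 2 cell carried 5 of them. Ciliated-marker cells carried up to 3 of them and type 1 cells up to 4. Summed, the club markers reached 395854 CPM in a ciliated-marker cell, above the 311059 CPM of the lowest club-marker cell. Club-marker cells in turn carried up to 3 of the 8 ciliated markers over 100 CPM. Of the 7 measured endothelial markers, *Tie1*, *Cldn5*, *Egfl7* and *Ramp2* had no read in any class. Together the 7 reached at most 2.78 CPM in a type 1 cell, 1.47 CPM in a type 2 cell, 59.4 CPM in a ciliated-marker cell and 291 CPM in a club-marker cell.

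Transcripts of *Ager* and *Sftpc*, which defined the classes, were also found outside their own class. *Ager* reads were present in 35 of the 36 other cells (median 22.1 CPM) and *Sftpc* reads in all 45 type 1 cells (median 97.6 CPM), at median depths of 693389 and 468718 reads per cell. Whether such reads came from other cells or from the cell itself was not tested. A few reads of a ligand in a cell were therefore not read as expression, and the number of cells over 100 CPM is given beside the number with any read.

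*Vegfa* exceeded 100 CPM in every type 1 cell. Its gene lies on chromosome 17 of mouse build GRCm38 (46016993 to 46032369, minus strand). Pooled over the 45 type 1 cells it stood at 3717 CPM (3692 to 3742), and the single cells ranged from 431 to 9674 CPM around a median of 3544 CPM. In the 11 type 2 cells the pooled level was 184 CPM (173 to 194), the median cell had 53.2 CPM and the highest 424 CPM. The 36 other cells had a pooled level of 138.5 CPM (134.1 to 143), a median of 4.16 CPM and a highest cell of 808 CPM. Every type 1 cell thus lay above every type 2 cell, although the lowest type 1 cell (431 CPM) and the highest type 2 cell were separated by less than counting error. Of the 8967 genes compared between these classes, 7 (0.0781%) had such a complete separation, the others being *Ager*, *Clic5*, *Col4a3*, *Fam189a2*, *Hopx* and *Pmp22*. The gap was narrow for *Col4a3*, between 1.69 CPM in the lowest type 1 cell and 1.47 CPM in the highest type 2 cell, and for *Clic5* (385 and 381 CPM). Against the other cells, 42 of the 45 type 1 cells exceeded the highest value of *Vegfa*, and 1 of 10520 genes (0.00951%), *Ager* itself, which defined the class, was completely separated.

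The log2 ratio of pooled *Vegfa* was 4.34 (4.26 to 4.42) for type 1 over type 2 cells, a 20.2-fold difference, and 4.75 (4.70 to 4.79) for type 1 over the other cells, a 26.8-fold difference. The type 2 level rested partly on a single cell that held 52.8% of the class's *Vegfa* reads, and without it the type 2 cells stood at 112.6 CPM. Of the 9 ligands *Vegfa* varied least between type 1 cells relative to its mean, with a coefficient of variation of 0.567, against 1.08 for *Sema3e* and 1.33 for *Pdgfa*. The cell with the most *Vegfa* reads held 9.52% of those of type 1 cells, and without it the level was 3491 CPM.

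The low pooled level of *Vegfa* in the other cells concealed a division between them. In the 10 basal-marker cells the pooled level was 464 CPM (448 to 481), with a median of 545 CPM, and 9 of the 10 cells had more than 100 CPM. By contrast, 1 of 13 ciliated-marker cells and 1 of 11 club-marker cells exceeded 100 CPM, with medians of 1.80 and 3.17 CPM. The ciliated-marker exception had 131.96 CPM of *Vegfa* beside 473 CPM of *Ager*, whereas the club-marker exception had 428 CPM of *Vegfa* and 7.98 CPM of *Ager*. In basal-marker cells *Vegfa* was thus lower than in type 1 cells, with a log2 ratio of -3.001 (-3.05 to -2.95), and 1.34 log2 units above type 2 cells (1.24 to 1.44). The 1 basal-marker cell below 100 CPM had 17.8 CPM.

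As a scale for type 1 RNA that may have been carried over, all *Ager* outside type 1 cells was taken as carried over. That premise was not tested, and *Ager* reads of a cell's own would also be counted as carried over. Type 1 cells held 16.9 reads of *Vegfa* per 100 reads of *Ager*. At that ratio the *Ager* of type 2 cells (599 CPM) would go with 101.4 CPM of *Vegfa*, and the measured level was 1.81 times this. The same scaling did not hold for the other ligands, which lay on both sides of it. *Sema3e*, *Sema3a* and *Sema3b* were measured in type 2 cells at 0.0314, 0.0261 and 0.229 times their scaled levels, *Sema3f* at 0.131 times and *Pdgfb* at 0. Above their scaled levels were *Pdgfa*, *Bmp4* and *Sema3c*, at 2.64, 19.7 and 186 times. The *Ager* of basal-marker cells (24.1 CPM) would go with 4.08 CPM, and the measured level was 113.9 times this. In ciliated-marker and club-marker cells 1 cell each, the exceptions above, held 92.3% and 82.5% of the *Vegfa* reads, and without them the levels were 1.66 and 9.85 CPM. Whether carried-over type 1 RNA had a part in these low levels was not tested.

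**Figure D1:**
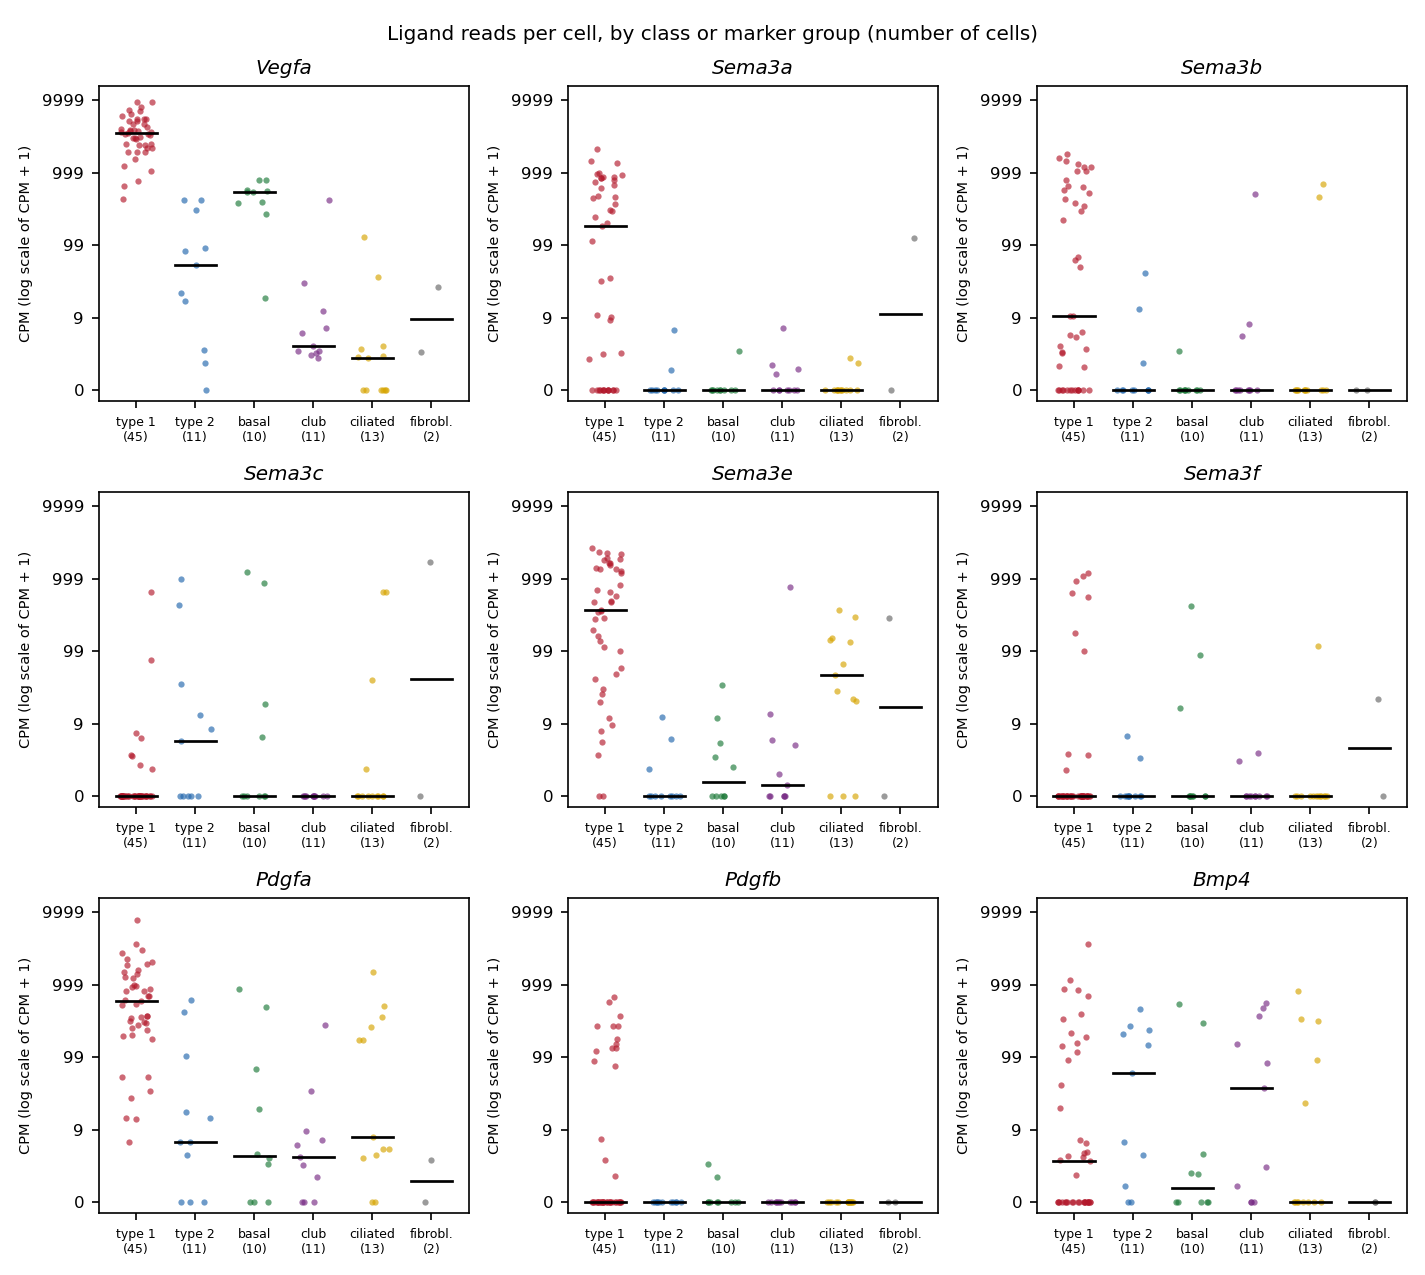
Reads of the 9 ligands in each of the 92 kept cells, as CPM on a log scale of CPM + 1, for type 1 cells, type 2 cells and the other cells split by their marker genes; each point is a cell, the bar is the median, and the number of cells is under each name. *Vegfa* lay at 431 CPM or more in all 45 type 1 cells and formed a second, lower band in basal-marker cells, while *Pdgfb* reads lay almost wholly in type 1 cells and *Sema3c* was spread over cells outside that class.

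Sequence upstream of the start is shown for *Vegfa* and *Sema3e*, which were at least 4-fold higher in type 1 cells in both comparisons, and for *Bmp4*, which was not. RefSeq promoter entries on GRCm38.p6 were matched for 6 of the 9 genes, and none was matched for *Sema3b*, *Sema3f* and *Pdgfb*. The 3 entries shown end where the GENCODE gene begins or just before it, whereas those of *Sema3a*, *Sema3c* and *Pdgfa* lie within the annotated gene and are not printed. Each sequence gives the 250 bases before the annotated start, 5′ to 3′ on the strand of the gene, and capitals mark GC boxes (GGGCGG) and hypoxia-response cores (ACGTG) on either strand.
*Vegfa* (chr17:46032378-46032627, minus strand): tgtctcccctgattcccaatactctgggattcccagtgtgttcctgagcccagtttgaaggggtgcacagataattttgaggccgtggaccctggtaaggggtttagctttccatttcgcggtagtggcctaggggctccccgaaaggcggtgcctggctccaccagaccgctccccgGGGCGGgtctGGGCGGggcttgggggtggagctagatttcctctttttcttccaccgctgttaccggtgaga
*Sema3e* (chr5:14025026-14025275, plus strand): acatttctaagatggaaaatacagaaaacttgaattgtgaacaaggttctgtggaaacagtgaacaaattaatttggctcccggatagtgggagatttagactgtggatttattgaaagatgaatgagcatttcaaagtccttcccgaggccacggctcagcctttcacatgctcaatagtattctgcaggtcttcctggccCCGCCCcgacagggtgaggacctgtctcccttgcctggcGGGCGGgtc
*Bmp4* (chr14:46390670-46390919, minus strand): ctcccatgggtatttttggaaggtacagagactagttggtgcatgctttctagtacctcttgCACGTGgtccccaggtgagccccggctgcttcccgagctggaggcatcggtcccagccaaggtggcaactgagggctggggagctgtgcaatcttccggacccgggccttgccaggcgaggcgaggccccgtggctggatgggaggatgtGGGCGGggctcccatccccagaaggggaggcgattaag
The windows of *Vegfa* and *Sema3e* each held 2 GC boxes and no hypoxia-response core. That of *Bmp4* held 1 GC box and 2 hypoxia-response cores, which overlap because the run CACGTG reads the same on both strands. Over all 32851 promoter entries, 32.7% held a GC box and 16.6% a hypoxia-response core in this window. Neither a TEAD core (GGAATG, in 12.6% of entries) nor a TATAAA run (12.4%) was found in the 3 windows, on either strand. *Vegfa* has a second entry within the gene, not printed, whose window held 1 GC box and 1 hypoxia-response core. The counts do not tell which start was used, so these matches describe letters in a window and no more.

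Among the class 3 semaphorins, *Sema3e* was the most widely found in type 1 cells. *Sema3e*, whose product binds plexin D1 on endothelial cells without needing a neuropilin, lies on chromosome 5 (14025276 to 14256689, plus strand). It had reads in 43 of 45 type 1 cells (95.6%, Clopper-Pearson interval 84.9% to 99.5%), of which 32 exceeded 100 CPM. The single cells ranged from 0 to 2656 CPM around a median of 376 CPM, and the pooled level was 721 CPM (711 to 732). In type 2 cells 4 reads were found in all, 0.618 CPM (0.168 to 1.58), and no cell exceeded 11.5 CPM. The log2 ratio over type 2 cells was 10.19, with a wide interval of 8.83 to 12.07.

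Cells with ciliated markers were the other place where *Sema3e* was frequent. It had reads in 10 of these 13 cells, 5 of them over 100 CPM, with a median of 46.7 CPM, a highest cell of 375 CPM and a pooled level of 129 CPM (120.97 to 137.2). The log2 ratio to type 1 cells was -2.48 (-2.58 to -2.39), and the level was 50.2 times that scaled from *Ager*. Of the 11 club-marker cells, 1 carried 774 CPM and held 97.96% of their *Sema3e* reads, and the basal-marker cells stayed at or below 33.8 CPM. Over all 36 other cells the pooled level was 75.3 CPM (72.1 to 78.7), so that the log2 ratio of type 1 cells was 3.26 (3.19 to 3.33).

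*Sema3a*, which encodes a repellent cue that signals through neuropilin 1 and A-type plexins, varied widely among type 1 cells. Its gene lies on chromosome 5 (13125414 to 13602565, plus strand). It had reads in 32 of the 45 type 1 cells, 24 of them over 100 CPM, whereas 13 cells had none. The median was 186 CPM, the highest cell had 2143 CPM, and the pooled level was 434 CPM (426 to 443). In type 2 cells 2 reads were found, and the log2 ratio of 10.46 had an interval of 8.60 to 13.50. The other cells had 169 reads, a pooled level of 6.25 CPM (5.34 to 7.26), of which 95.3% came from 1 fibroblast-marker cell at 127.4 CPM, and the log2 ratio was 6.12 (5.90 to 6.35). Without that cell the other 35 stood at 0.310 CPM.

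*Sema3b* and *Sema3f* are neighbours on chromosome 9 (107597674 to 107609229 and 107681500 to 107710475, both minus strand), and both encode cues that act through neuropilins, with neuropilin 2 the usual receptor of SEMA3F. *Sema3b* had reads in 32 of 45 type 1 cells, of which 18 exceeded 100 CPM. The median was 9.62 CPM, the highest cell had 1825 CPM, and the pooled level was 321 CPM (314 to 329). Type 2 cells had 13 reads in 3 cells, 2.01 CPM (1.07 to 3.43), and the log2 ratio was 7.32 (6.55 to 8.23). In the other cells 6 of 36 had reads, and 3 of them, 2 with ciliated markers and 1 with club markers, exceeded 100 CPM, at 706, 509 and 463 CPM. The pooled level there was 66.99 CPM (63.9 to 70.2) and the log2 ratio 2.26 (2.19 to 2.34). The club-marker cell among them was the one just under the *Sftpc* threshold, and with that threshold at 2000 CPM the log2 ratio of *Sema3b* over type 2 cells was 1.45, below the 4-fold threshold.

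*Sema3f* was found in few cells of any class. Reads were present in 10 of 45 type 1 cells, 7 of them over 100 CPM and the highest at 1194 CPM, with a median of 0. The pooled level was 86.6 CPM (82.8 to 90.4), and without the cell with the most *Sema3f* reads, which held 34.1% of them at 931 CPM, it was 58.9 CPM. Type 2 cells had 2 reads, giving a log2 ratio of 8.13 (6.28 to 11.18). The other cells had 259 reads in 7 cells, 9.58 CPM (8.44 to 10.8), and a log2 ratio of 3.18 (2.99 to 3.37). Taken by position on the chip, the ratio was 0.26 over the first 10 columns and 5.14 over the last 10.

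*Sema3c* went the other way. This gene, on chromosome 5 (17574281 to 17730268, plus strand), encodes a cue that binds both neuropilins and is known from vascular and branching development. It had reads in 8 of 45 type 1 cells, and 1 cell with 653 CPM held 91.4% of them. The pooled type 1 level was 16.6 CPM (14.9 to 18.3), and without that cell 1.46 CPM. In type 2 cells it was 84.1 CPM (77.2 to 91.5), with reads in 6 of 11 cells and values of 1002 and 436 CPM in the highest pair. In the other cells it was 165 CPM (160.5 to 170.2), with reads in 9 of 36 cells. Of the 5 other cells over 100 CPM, 1 was a fibroblast-marker cell (1710 CPM), 2 were basal-marker cells (1231 and 865 CPM) and 2 were ciliated-marker cells (670 and 666 CPM). None of the 10239782 reads of the club-marker cells was from *Sema3c*, which allows a level of up to 0.293 CPM at 3 reads over the class. The log2 ratio of type 1 cells was -2.35 (-2.54 to -2.15) against type 2 cells and -3.32 (-3.47 to -3.17) against the other cells. The median cell had no read in type 1 and other cells and 4.83 CPM in type 2 cells, and without the cell with the most reads the type 2 level was 32.5 CPM and that of the other cells 89.6 CPM.

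The PDGF chains differed in breadth. *Pdgfa*, which encodes the A chain that acts on PDGF receptor alpha of fibroblasts, lies on chromosome 5 (138976014 to 138997370, minus strand). It had reads in all 45 type 1 cells, from 5.78 to 7803 CPM with a median of 591 CPM, and 38 cells exceeded 100 CPM. The pooled level was 875 CPM (863 to 887), against 63.1 CPM (57.2 to 69.6) in type 2 cells and 96.5 CPM (92.8 to 100.2) in the other cells. The log2 ratios were 3.79 (3.65 to 3.94) and 3.18 (3.12 to 3.24). A single type 2 cell held 57.9% of the *Pdgfa* reads of its class, which stood at 28.2 CPM without it. The classes overlapped, as 3 type 2 cells exceeded 100 CPM, up to 626 CPM, and 6 of 13 ciliated-marker cells did, up to 1507 CPM. In ciliated-marker cells the pooled level was 204 CPM (194 to 214), and 137.6 CPM without the cell with the most *Pdgfa* reads. In the 10 basal-marker cells it was 111.3 CPM (103.4 to 119.7), with 2 cells over 100 CPM, and 27.3 CPM without the highest cell. The antisense gene *6330403L08Rik* overlaps *Pdgfa*, and the strand setting of the counting is not given in the sources used here, so reads of this pair may be mixed.

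*Pdgfb*, which encodes the B chain that recruits pericytes to capillaries, lies on chromosome 15 (79995874 to 80014977, minus strand). Reads were found in 16 of 45 type 1 cells (35.6%, interval 21.9% to 51.2%), of which 11 exceeded 100 CPM, with a highest cell of 681 CPM and a pooled level of 80.8 CPM (77.1 to 84.5). None of the 6477051 reads of type 2 cells was from *Pdgfb*, so that, with the type 2 level set to 3 reads over the class, the level in type 1 cells was at least 174-fold higher. At the upper counting limit of the type 2 level it was 142-fold higher. With all deposited cells the log2 ratio over type 2 cells was 1.46. Among the cells left out, 1 cell with at least 8000 CPM of *Sftpc* carried 855 CPM of *Pdgfb*. The 36 other cells had 2 reads in all, and the log2 ratio was 10.09 (8.24 to 13.14). The remaining type 1 cells, the greater part of the class, had no read of *Pdgfb*.

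*Bmp4* was found in all 3 classes and differed by less than 4-fold in both comparisons. Its gene lies on chromosome 14 (46383520 to 46390669, minus strand), and *Gm15217* and *Gm15222* on the opposite strand overlap it. Type 1 cells ranged from 0 to 3712 CPM with a median of 2.75 CPM, and 12 of 45 exceeded 100 CPM. Their pooled level was 195 CPM (189.7 to 201), of which the highest cell held 25.2%, and without it the level was 148 CPM. Type 2 cells were at 105.1 CPM (97.4 to 113.3), with 5 of 11 cells over 100 CPM, and the other cells at 96.8 CPM (93.1 to 100.5), with 9 of 36 over 100 CPM. The log2 ratios of 0.89 (0.78 to 1.01) and 1.01 (0.94 to 1.08) were the smallest of the 9 ligands in absolute size, and the median cell was higher in type 2 cells, at 60.8 CPM, than in type 1 cells. The sets of single cells overlapped over most of their range.

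In all, 7 of the 9 ligands were at least 4-fold higher in type 1 than in type 2 cells, and 1, *Sema3c*, was at least 4-fold lower. With a 4-fold difference as the threshold and a mean of at least 5 CPM over both classes, 41.7% of 8967 genes were higher and 14.8% lower in type 1 cells. The median log2 ratio of all genes was 1.08 and that of the 9 ligands 7.32. Against the other cells 7 ligands were again at least 4-fold higher and *Sema3c* at least 4-fold lower, where 20.8% of 10520 genes were higher and 23.9% lower. Of these 7, *Sema3b* and *Sema3f* were below 4-fold with an mt- share under 0.10, with log2 ratios of 1.83 and 0.09. In the main comparison with the other cells, with an mt- share under 0.15, the median log2 ratio was -0.0013 for all genes and 3.18 for the ligands. All 9 ligands passed the level of 5 CPM in both comparisons. Both share the type 1 cells, so the second count is not independent of the first. The ligands were chosen with earlier results of these data known, so the counts and medians beside those of all genes are descriptions only. Within each side of the chip the ligands kept their direction, and for *Vegfa* the log2 ratio over type 2 cells was 4.55 on the side of the first 10 columns and 4.07 on the other.

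**Figure D2:**
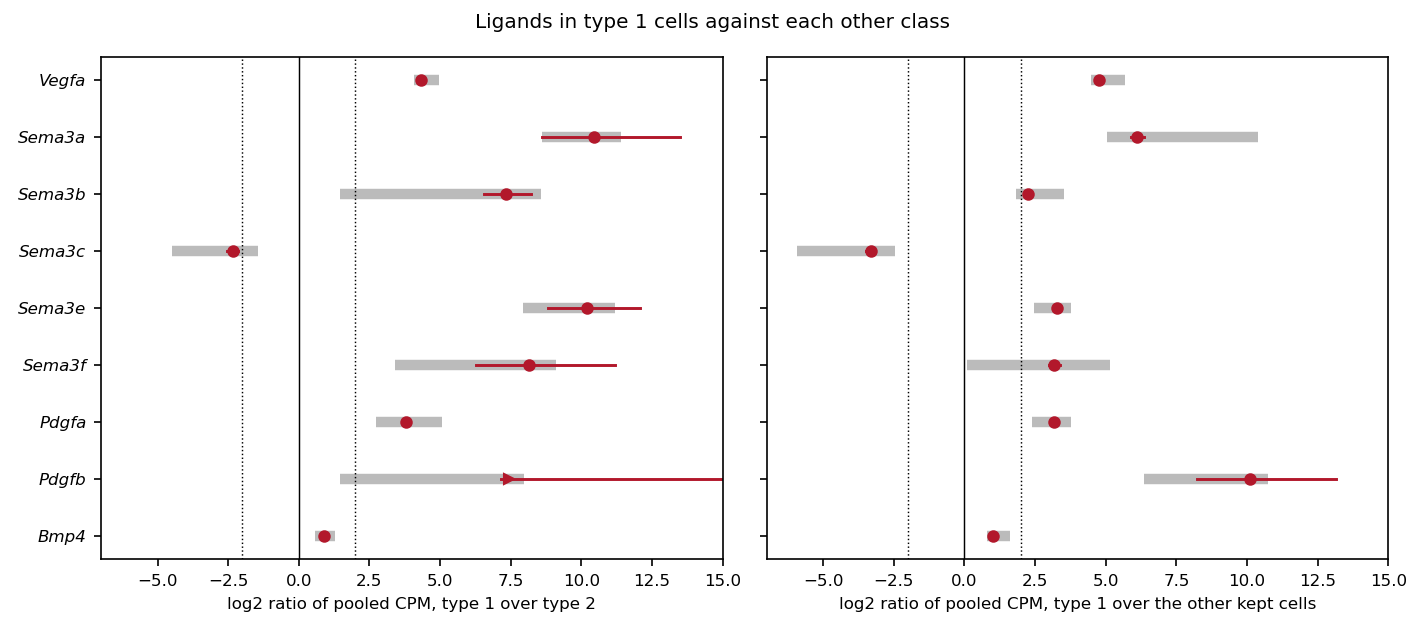
Log2 ratio of pooled CPM of each ligand for type 1 cells over type 2 cells (left) and over the other kept cells (right). Points are the ratios, red lines their 95% counting intervals, a triangle marks *Pdgfb*, which had no read in type 2 cells and stands at its ratio to 3 reads over that class, grey bars span all alternative settings and dotted lines mark a 4-fold difference; *Sema3c* lay below 0 in both panels and *Bmp4* between 0 and the dotted line.

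Within type 1 cells the ligands formed a mosaic. Of the 45 cells, 19 had 4 of the 9 ligands over 100 CPM, 13 had 5 and 5 had 6, while 8 had 3 or fewer, *Vegfa* being one of them in each cell. The median was 4 in type 1 cells and 1 in both other classes, in which the highest counts were 3 and 4. Of *Sema3a*, *Sema3b* and *Sema3e*, 8 type 1 cells had all 3 over 100 CPM, 9 had *Sema3a* with *Sema3e*, 8 had *Sema3b* with *Sema3e*, 2 had *Sema3a* with *Sema3b*, 12 had a single one and 6 had none. Over the 36 pairs of ligands, Spearman's rho across the 45 cells ran from -0.31 to 0.30 with a median of 0.01. The cells share a mouse and a chip and the counts are sparse, so these weak values are no finding in either direction. *Vegfa* had a rho of -0.10 with the reads per cell and 0.05 with the mt- share, and the corresponding values of the other ligands lay between -0.26 and 0.28.

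**Figure D3:**
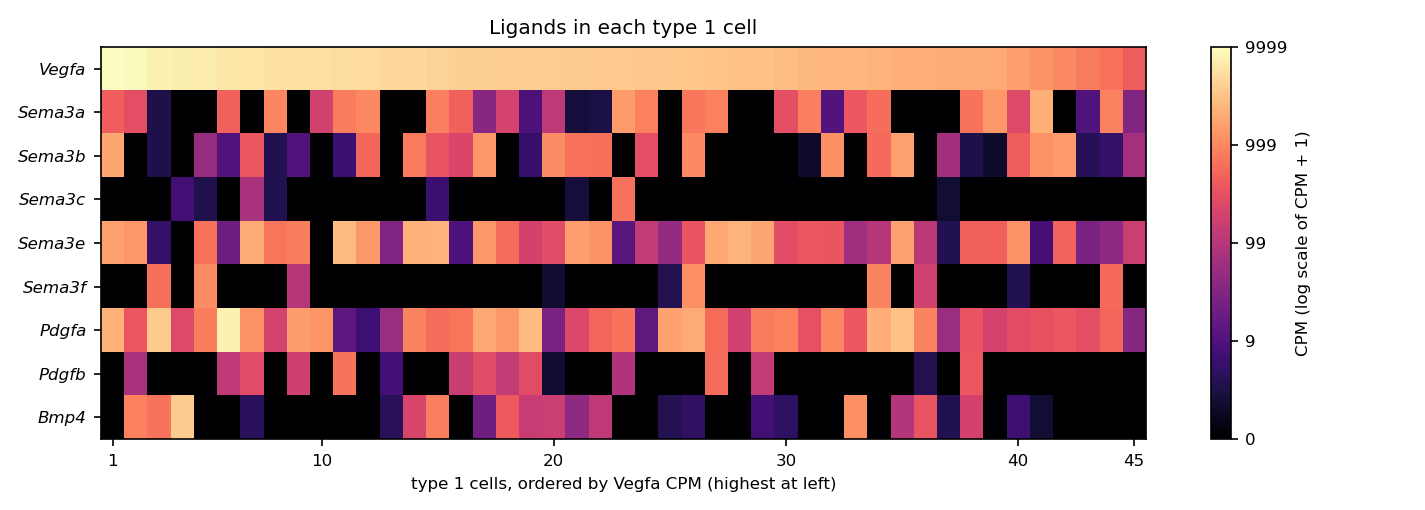
The 9 ligands (rows) in each of the 45 type 1 cells (columns, ordered by *Vegfa*), with CPM as colour on a log scale of CPM + 1. *Vegfa* was bright in every column and *Pdgfa* in most, whereas *Sema3a*, *Sema3b*, *Sema3f*, *Pdgfb* and *Bmp4* ranged from bright cells through cells with few reads to cells with none.

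The genes whose pattern over the 92 kept cells was most like that of each ligand were ranked by Spearman's rho, which describes these cells of 1 mouse and carries no test. Among 4925 genes with reads in at least 20 cells, *Vegfa* was closest to *Sparc*, *Col4a3* and *Clic5*, with rho of 0.79, 0.79 and 0.77. *Sema3e* was closest to *Qk*, *Col4a3* and *Pmp22* (0.62, 0.61 and 0.61), *Pdgfa* to *Fam189a2*, *Rtkn2* and *Limch1* (0.69, 0.66 and 0.63), *Sema3a* to *Fads3*, *Msn* and *Limch1* (0.58, 0.57 and 0.57) and *Sema3b* to *Cldn18*, *Hmha1* and *Rtkn2* (0.53, 0.51 and 0.51). *Sema3c* reached at most 0.42, with *Cdkn1a*, followed by *mt-Tt* and *Gm35106* (0.39 and 0.38), and *Bmp4* at most 0.40, with *Daam1*, followed by *Ppm1b* and *Gm12090* (0.38 and 0.37). *Sema3f* and *Pdgfb* had reads in 19 and 18 kept cells and were not ranked. Within the 45 type 1 cells alone, *Vegfa* had a rho of 0.06 with *Sparc*, 0.14 with *Col4a3* and 0.20 with *Clic5*.

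Genes of the VEGF pathway were few in the table. *Vegfb*, which encodes a related ligand, was lower in type 1 cells, at 2.29 CPM against 46.01 CPM in type 2 cells and 29.7 CPM in the others. *Figf* was at or under 1.39 CPM in all 3 classes, and *Vegfc* and *Pgf* were not analysed here. The endothelial receptor *Kdr* had no read in type 1 or type 2 cells, and *Flt1* had reads in 1 type 2 cell. The neuropilins, by contrast, were present in type 1 cells: *Nrp2* had 195 CPM in type 1 cells, with reads in 20 of 45, against 0.154 CPM in type 2 cells and 0.185 CPM in the others. *Nrp1* had 268 CPM in type 1 cells and 160.3 CPM in type 2 cells, of which 1 cell held 70.9%, and 9.35 CPM in the others. Of 3 receptors compared with the other cells, *Nrp1* and *Nrp2* were at least 4-fold higher and *Kdr* at least 4-fold lower in type 1 cells. Against type 2 cells *Nrp2* was higher, *Flt1* lower and *Nrp1* neither. The median log2 ratios of the receptors were 0.74 over type 2 cells and 4.84 over the other cells, against 1.08 and -0.0013 for all genes.

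Of the hypoxia pathway, which controls *Vegfa* transcription in many cells, 7 of the 8 measured genes could be compared, and 3 were at least 4-fold higher and 2 at least 4-fold lower in type 1 cells, in both comparisons, with median log2 ratios of 1.23 over type 2 cells and 1.42 over the others. *Epas1*, which encodes the oxygen-sensitive factor HIF-2 alpha, stood at 3.20 CPM in type 1 cells, 316 CPM in type 2 cells and 761 CPM in the others. Among the others *Epas1* was at 2230.3 CPM in basal-marker, 472 CPM in club-marker, 147 CPM in ciliated-marker and 0.379 CPM in fibroblast-marker cells. A link between *Epas1* and *Vegfa* was not tested. *Hif1a* was at 8.52 CPM in type 1 cells, 98.5% of it from 1 cell, against 91.9 CPM in type 2 cells and 52.4 CPM in the others. Higher in type 1 cells were *Arnt*, the partner of both factors (44.9 CPM against 2.78 and 10.5 CPM), *Vhl*, part of the ligase that removes them (109.2 CPM against 0 and 24.4 CPM), and *Hif1an*, which restrains their activity (48.9 CPM against 0.154 and 9.87 CPM). Reads of *Arnt*, *Vhl* and *Hif1an* were found in 11, 9 and 10 of the 45 type 1 cells, and 1 cell held 55.7% of the *Vhl* reads of that class. These are transcript levels, and protein was not measured.

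Of the remaining class 3 semaphorins, *Sema3d* and *Sema3g* were below 1 CPM in all 3 classes. Among 9 measured membrane-bound semaphorins 3 could be compared. *Sema6d* was at least 4-fold higher in type 1 cells in both comparisons (120 CPM against 0.309 and 17.7 CPM), *Sema5a* was so over type 2 cells (99.95 CPM against 0.309 and 47.1 CPM), and *Sema4f* was lower than in type 2 cells but higher than in the others (36.1, 305 and 0.702 CPM). The medians of these 3 were 8.34 and 2.76. Of the plexins, the signalling receptors, 5 of 8 measured genes could be compared. *Plxna1* was at least 4-fold higher in type 1 cells in both comparisons, at 270.3 CPM with reads in 39 of 45 cells against 2.32 and 60.01 CPM. *Plxna4* was so over the other cells (40.4 against 8.58 CPM), and none was at least 4-fold lower (medians 0.94 and 1.23). *Plxnd1*, the receptor of SEMA3E, had 1 read in type 1 cells and none in type 2 cells.

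*Pdgfc* and *Pdgfd* were not analysed here. *Pdgfra*, the one PDGF receptor measured, was at 402 CPM in the 2 fibroblast-marker cells, all of it from 1 of them, and had 2 reads in type 1 cells and none in type 2 cells. Among BMP ligands, *Bmp2*, *Bmp3* and *Bmp5* were lower in type 1 cells, each at or under 0.173 CPM there, against 68.9, 113.9 and 14.7 CPM in type 2 cells, and *Bmp3* and *Bmp5* stood at 64.6 and 30.8 CPM in the other cells (list medians -9.05 and -8.01). For each of these 3 genes 1 type 2 cell held most reads of its class, at 60.5%, 87.4% and 86.3%. Of the inhibitors, *Fstl3*, which encodes an activin-binding protein, was at 249.7 CPM in type 1 cells with reads in 32 of 45, and *Htra1*, a secreted protease, at 240.4 CPM with reads in 28. In type 2 cells both genes had at most 1 read. Of the inhibitor list 2 of 5 genes were at least 4-fold higher and 2 lower than in type 2 cells, and 3 of 4 higher and 1 lower than in the other cells (medians -1.50 and 2.47). *Smad6*, an inhibitory SMAD, was at 31.04, 87.8 and 6.14 CPM and *Smad7* at 8.60, 0.154 and 41.4 CPM in type 1, type 2 and other cells. A single type 2 cell held 99.3% of the *Smad6* reads of its class. Of the BMP receptors, 1 of 4 was higher than in type 2 cells (*Acvr2a*, 34.3 against 0.154 CPM), and 2 of 6 were higher (*Bmpr2* and *Acvr2b*) and 1 lower (*Bmpr1b*) than in the other cells (medians 1.08 and 0.67). *Bmpr2* stood at 180.2 CPM in type 1 cells, 179.6 CPM in type 2 cells and 14.01 CPM in the others, with 1 type 2 cell holding 87.9% of the reads of its class. Of 3 target genes compared, *Id1* and *Id3* were at least 4-fold higher and *Id2* lower than in type 2 cells, and *Id2* was lower than in the other cells. *Id3* was at 352, 4.01 and 265 CPM, *Id1* at 54.9, 0.463 and 66.6 CPM and *Id2* at 18.5, 147 and 91.4 CPM in type 1, type 2 and other cells (medians of the 3 genes 6.45 and -0.28). *Chrd* and *Bambi*, the inhibitors lower than in type 2 cells, had at most 1 read in type 1 cells and 11.4 and 39.8 CPM in type 2 cells. There, 1 cell held all *Chrd* reads, and 1 cell held 85.7% of the *Bambi* reads.

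**Figure D4:**
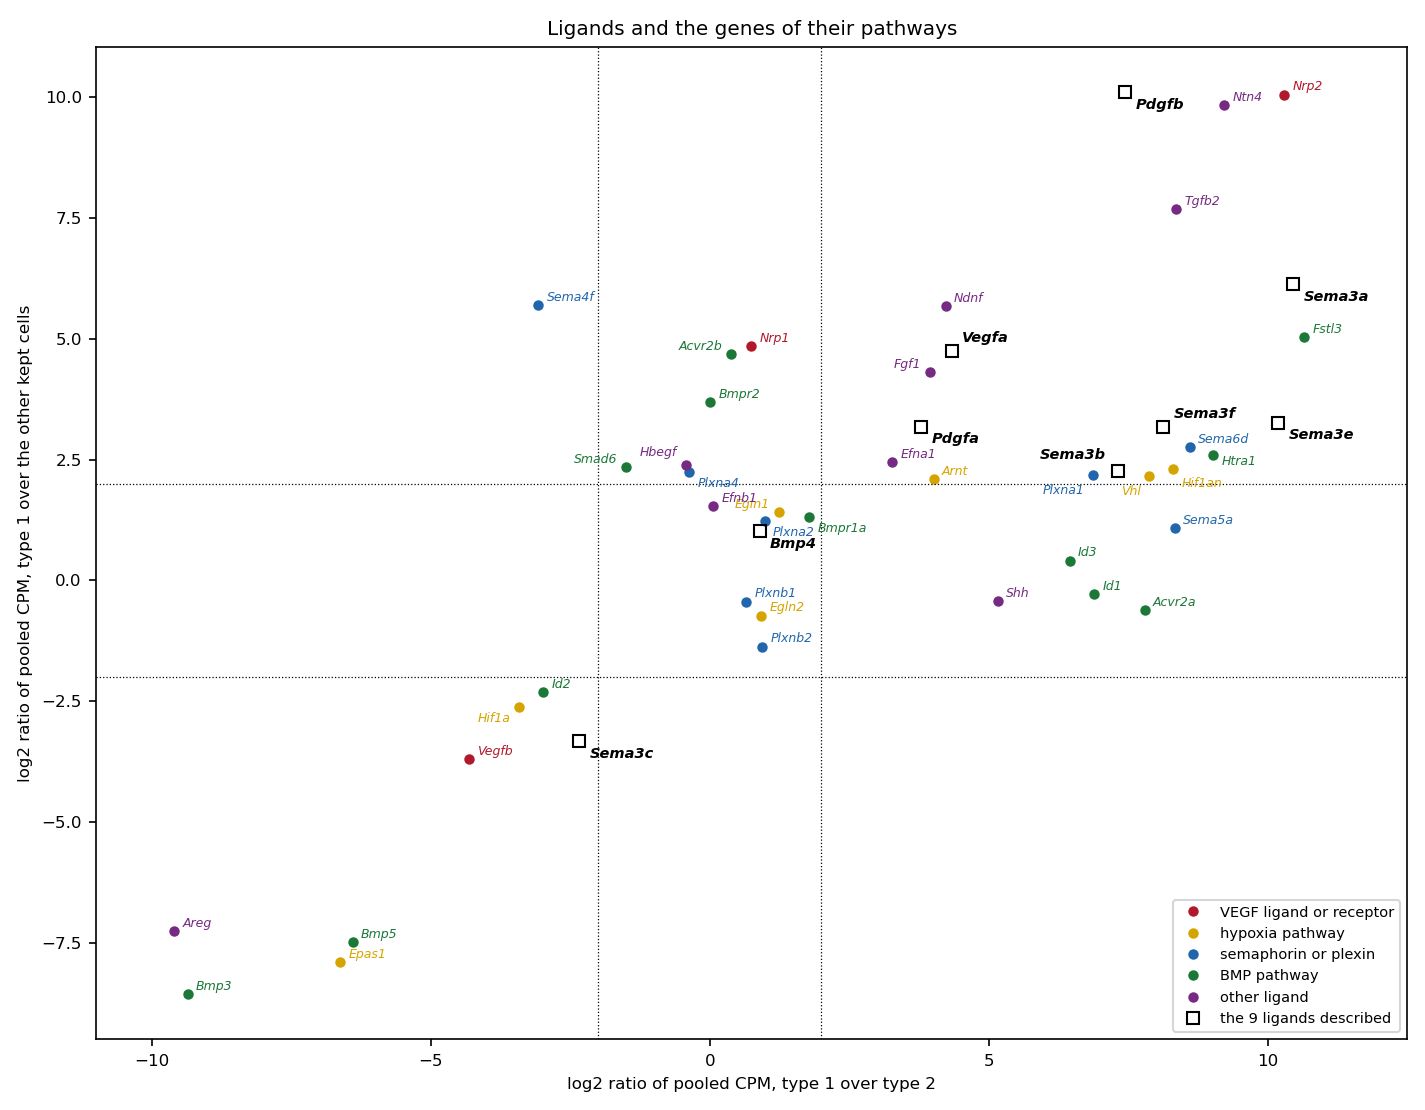
Log2 ratio of pooled CPM in type 1 cells over type 2 cells (horizontal) and over the other kept cells (vertical) for the genes of the ligands' pathways that passed the level filter in both comparisons (filled points) and the 9 ligands (open squares); dotted lines mark 4-fold differences. Most of the ligands lay in the upper right with *Nrp2*, *Ntn4* and *Tgfb2*, and *Sema3c* lay in the lower left with *Vegfb*, *Hif1a* and *Epas1*.

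Of 24 further secreted or membrane-bound ligands, 21 were measured. Against type 2 cells 6 of 10 compared were at least 4-fold higher and 2 lower in type 1 cells, and against the other cells 6 of 15 were higher and 7 lower (medians 3.61 and -0.42). Those higher in both comparisons were *Ndnf* (698 CPM in type 1, 37.2 CPM in type 2 and 13.7 CPM in other cells), *Fgf1* (877, 56.97 and 44.6 CPM), *Ntn4* (369, 0.618 and 0.407 CPM), *Tgfb2* (151, 0 and 0.739 CPM) and *Efna1* (343, 35.5 and 63.1 CPM). *Ndnf*, which encodes a secreted factor that acts on endothelial cells and neurons, had reads in 42 of 45 type 1 cells and *Fgf1*, a growth factor for epithelium and mesenchyme, in 43. *Areg*, an EGF receptor ligand, was lower in type 1 cells in both comparisons, at 0.389 CPM against 302 and 58.7 CPM. *Edn1*, *Angpt1*, *Angptl4*, *Kitl*, *Slit2* and *Efna5* were lower than in the other cells and at or under 0.216 CPM in type 1 cells, the *Angpt1* and *Slit2* reads of the other cells all coming from 1 cell each, while *Ntn1* was lower than in type 2 cells, in which 1 cell held all reads. *Hbegf* was higher in type 1 than in the other cells (250.4 against 47.7 CPM) but not than in type 2 cells (338 CPM), and *Shh* was higher than in type 2 cells (22.2 against 0.618 CPM) but not than in the other cells (29.7 CPM). The lists were counted against the same 41.7%, 14.8%, 20.8% and 23.9% of all genes, so the shares of single lists of a few genes are given as descriptions.

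The 49 cells left out for an mt- share of at least 0.15 included 19 with at least 5000 CPM of *Ager*, 16 with at least 8000 CPM of *Sftpc* and 14 others. In the 19 *Ager*-high cells *Vegfa* ranged from 1548 to 9693 CPM around a median of 4118 CPM, so that each of them lay above the highest kept cell outside the type 1 class. *Pdgfb* differed from the kept cells in that 1 *Sftpc*-high cell carried 855 CPM. *Sema3c* also differed, with 0 reads in the 16 *Sftpc*-high cells and 5 reads (1.20 CPM) in the 14 others. The kept cells of those classes stood at 84.1 and 165 CPM. Among the cells left out, the log2 ratio of *Sema3c* in *Ager*-high cells over the 14 others was -1.68 (-4.36 to 0.68).

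**Figure D5:**
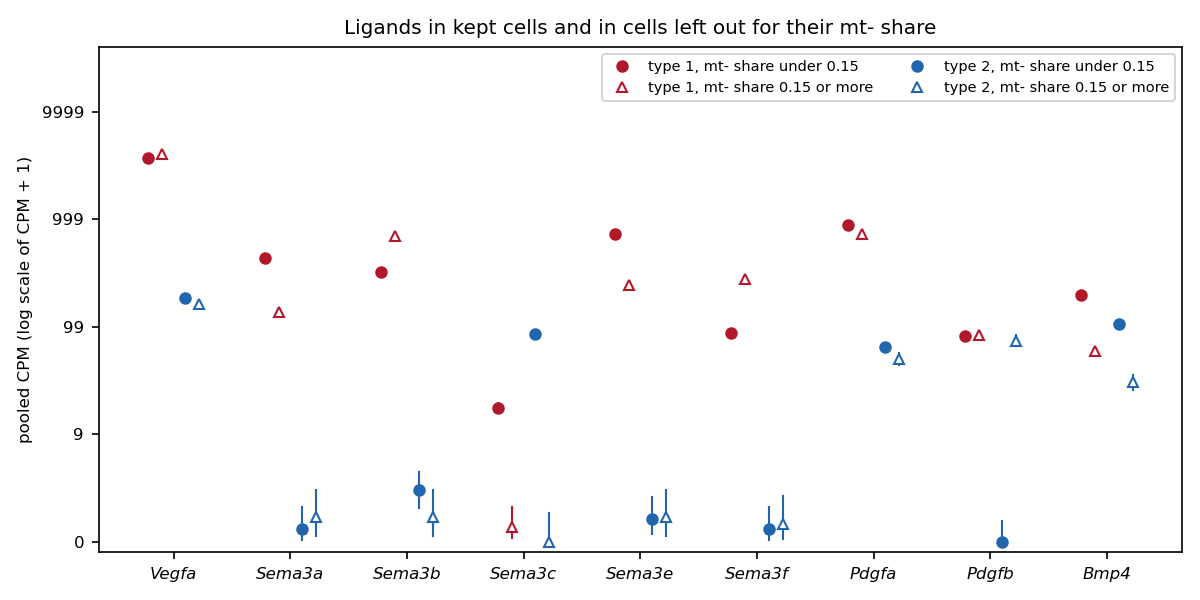
Pooled CPM of the 9 ligands on a log scale of CPM + 1 for type 1 and type 2 cells with an mt- share under 0.15 (circles) and of 0.15 or more (triangles), with 95% counting intervals as lines. *Vegfa* stood near 3717 and 3983 CPM in the type 1 groups, and for *Pdgfb* the triangle of type 2 cells, at 73.2 CPM, rested on a single cell.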

How the data were processed

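Sorted tdTomato+ cells were captured on a Fluidigm C1 HT chip and sequenced. Per the submitters' processing notes, the authors used Trim Galore and FastQC for read quality, HISAT2 with GRCm38 for alignment and featureCounts for the reads of each gene. Tool versions and the strand setting are not given in the sources used here. The deposited values are raw counts of reads, without molecular identifiers, so PCR copies are counted and intervals are too narrow. From these counts, CPM, pooled ratios, exact Poisson, Clopper-Pearson and conditional intervals were computed in Python 3.11.15 with scipy 1.17.1. Single cells of 1 mouse allow no test. Pooling weights cells by their reads. The members and gene lists were chosen with earlier results of these data known, and 1 gene of the BMP inhibitor list is not reported here. Named genes were the 9 ligands, the list genes with a difference of at least 4-fold, the class markers and the 3 genes most like each ligand; other list genes are named where a count needs them. Alternatives were the mt- share, both class thresholds, scaling (scran 1.30.0), thinning to 90000 reads, leaving out single cells, each side of the chip, the minimum CPM and the fold. Ratio calculations were tested on simulated data.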

Additional observations from a re-analysis of the deposited data

Results flagged for a closer look

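The 49 cells left out for an mt- share of at least 0.15 are outside the comparisons above, and 19 of them met the *Ager* criterion of type 1 cells. In these 19 cells all ligands but *Sema3c*, which had 3 reads, were above the limit of 3 reads. *Vegfa* was at 3983 CPM, with reads in all 19 cells and a lowest cell of 1548 CPM. *Pdgfa* was at 723 CPM, *Sema3b* at 691 CPM, *Sema3f* at 277 CPM, *Sema3e* at 244 CPM, *Sema3a* at 136.7 CPM, *Pdgfb* at 82.8 CPM and *Bmp4* at 58.6 CPM. Beside the 45 kept type 1 cells, *Sema3b* and *Sema3f* were higher and *Sema3a*, *Sema3e* and *Bmp4* lower in the cells left out, with *Vegfa* and *Pdgfa* differing less. *Pdgfb* had reads in 4 of the 19 cells, 62.3% of them in 1 cell, and stood at 35.8 CPM without it. There, 1 cell held 60.3% of the *Sema3f* reads and another 32.4% of the *Sema3b* reads. The median depth of all cells left out was 292455 reads, against 553963 reads in kept cells, and the part of depth or cell quality in these differences was not tested.

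Among the cells left out, the log2 ratio of *Vegfa* in *Ager*-high cells was 4.64 (4.53 to 4.75) over the 16 *Sftpc*-high cells and 4.21 (4.11 to 4.30) over the 14 others. For *Pdgfb* the ratio over the *Sftpc*-high cells was 0.18 (-0.02 to 0.37), and all 322 reads of those cells came from 1 of them, with 855 CPM of *Pdgfb* and 34.5 CPM of *Ager*. The highest *Vegfa* values outside the *Ager*-high cells were also among the cells left out: 2463 CPM in an *Sftpc*-high cell with 4696 CPM of *Ager*, just under the type 1 criterion, and 2800 CPM in a cell with 24.2 CPM of *Ager*. Both values exceed those of every kept cell outside the type 1 class.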

How the results depend on the processing

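Over type 2 cells the log2 ratio of *Vegfa* (4.34) was 4.50 with an mt- share under 0.10, 4.44 over all deposited cells, 4.67 with *Sftpc* at 2000 CPM, 4.90 as a mean of single cells, 4.97 thinned to 90000 reads, 4.92 with scran size factors and 4.96 without the cell with the most *Vegfa* reads in each class. Over the other cells (4.75) it was 4.51, 4.67, 4.65, 4.63, 4.66, 5.10 and 4.99 in the same order and 4.46 with *Ager* at 10000 CPM. On the first 10 and the last 10 columns of the chip the ratios were 4.55 and 4.07 over type 2 cells and 4.49 and 5.68 over the other cells. The log2 ratios of the 8 other ligands kept their sign in the 184 recalculations in which the value changed, and 40 others left it as it was. One of the settings, leaving out the type 2 cell with club markers, was chosen after seeing the data. The count of ligands at least 4-fold higher in type 1 cells stayed between 6 and 7 over type 2 cells and, over the others, was 5 with an mt- share under 0.10 and otherwise 6 or 7. At a 2-fold threshold 8 were higher than in the others. The count at least 4-fold lower than in type 2 cells fell from 1 to 0 with *Sftpc* at 2000 CPM, on the last 10 chip columns and with an 8-fold threshold, *Sema3c* being the ligand concerned, and the cause was not tested. Over the other cells *Sema3f* had a log2 ratio of 0.09 and *Sema3b* one of 1.83 with an mt- share under 0.10, and *Sema3f* one of 1.85 with *Ager* at 10000 CPM. Over type 2 cells *Pdgfb* had one of 1.46 with all deposited cells and *Sema3b* one of 1.45 with *Sftpc* at 2000 CPM. With scran size factors the median log2 ratio of all genes over the other cells was 0.25, and with an mt- share under 0.10 it was -0.35. Ratios against classes with 1 to 4 reads are limited by depth. No paired analysis was possible because all cells came from 1 mouse and no result came from a test.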
